A study of Mus musculus with 2 samples.

Results

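The 9 genes described here encode receptors through which growth factors act on haematopoietic progenitors and myeloid cells: *Kit*, *Flt3*, *Csf1r*, *Csf2ra*, *Csf2rb*, *Csf3r*, *Epor*, *Il3ra* and *Il6ra*. They were chosen by name, and their 11 protein-coding RefSeq transcripts were followed among 26968 such transcripts, or 9 genes among 20250. RNA-seq was measured in 1 library of *Ebf1* -/- pre-pro-B cells and 1 library of *Rag2* -/- pro-B cells, both on a C57BL/6 background and both grown on OP-9 stromal cells. Both cultures received Il-7 at 5 ng/mL, and the pre-pro-B culture alone received Scf and Flt3l, each at 10 ng/mL. Scf and Flt3l are the ligands of *Kit* and *Flt3*. The pre-pro-B cells came from female embryonic livers and the pro-B cells from male adult bone marrow, so cell type, deleted gene, sex, age, organ of origin and medium changed together and cannot be told apart. With 1 library per cell type no difference has a replicate check and no p-value is given.

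*Kit*, *Flt3* and *Csf1r* are receptor tyrosine kinases of one family, which dimerise on binding their ligand (Scf, Flt3l and M-CSF, respectively) and phosphorylate their own tails. The other members are cytokine receptor chains with no kinase of their own, which signal through associated Jak kinases and Stat factors. *Csf2ra* and *Il3ra* are the ligand-binding chains for GM-CSF and Il-3 and pair with the shared signalling chain encoded by *Csf2rb*, while *Il6ra* binds Il-6 and pairs with gp130, the product of *Il6st*. *Csf3r* and *Epor* bind G-CSF and erythropoietin as homodimers. In the bone marrow *Kit* and *Flt3* mark multi-potent and lymphoid-primed progenitors, and *Csf1r*, *Csf2ra*, *Csf2rb* and *Csf3r* are best known from macrophages and granulocytes.

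The promoters of *Kit* and *Flt3* are shown because these genes had the highest receptor FPKM in the pre-pro-B library and, of the 9 genes, differed most between the libraries. Both sequences are from RefSeq on GRCm38 and run from 250 bases before to 50 bases after the annotated start. That of *Kit* lies at chr5:75574737-75575036 on the plus strand and that of *Flt3* at chr5:147400440-147400739 on the minus strand. Capitals mark GAGGAA, a core that PU.1 and other Ets factors bind, searched on both strands.
Kit: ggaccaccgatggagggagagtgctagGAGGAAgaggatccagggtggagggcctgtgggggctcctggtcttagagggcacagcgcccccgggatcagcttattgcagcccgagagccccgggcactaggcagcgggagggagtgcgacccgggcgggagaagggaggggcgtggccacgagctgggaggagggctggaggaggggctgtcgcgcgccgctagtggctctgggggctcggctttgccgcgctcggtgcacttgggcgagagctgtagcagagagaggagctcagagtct
Flt3: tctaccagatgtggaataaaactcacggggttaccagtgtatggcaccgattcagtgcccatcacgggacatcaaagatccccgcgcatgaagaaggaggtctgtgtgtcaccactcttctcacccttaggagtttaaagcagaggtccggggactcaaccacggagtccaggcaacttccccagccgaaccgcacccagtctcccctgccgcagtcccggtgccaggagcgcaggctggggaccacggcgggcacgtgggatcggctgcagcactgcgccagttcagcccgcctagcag
The *Kit* window held 1 copy of GAGGAA and the *Flt3* window held 0, which says only that these letters are not in this window. Promoters were given for 7 of the 9 genes, all except *Csf1r* and *Csf2rb*. GAGGAA was found in 4 of the 7 (*Kit*, *Csf2ra*, *Csf3r* and *Il6ra*), against 28.3% of 27025 promoters of the same length. TGTGGT, a Runx core, was found in 1 of the 7 (*Epor*) against 16.9% of all. Zinc-finger factors that drive red cell genes can bind AGATAA, which was found in *Epor* and *Il6ra* against 11.4% of all. A variant of it, TGATAA, was found in 0 of the 7 against 9.26% of all. TTGCNNAA, for C/EBP factors, was found in *Il3ra* against 10.8%, and the palindrome of Ebf1 in 0 of the 7 against 0.914%. The 7 promoters held 59.7% to 74.3% G and C, all above the median of 52.7% over all promoters.

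*Kit* has 2 RefSeq transcripts in the deposited values, whose lengths differ by 16 bases. On the same build as these values, mm9, the annotated coding transcripts of *Kit* differ in exon 9 by a 12-base insert at chr5:76035172-76035183 on the plus strand, in the part of the receptor outside the cell and next to the membrane. The insert is in capitals and is shown because reads that cover it can tell these forms of *Kit* apart.
Kit with the insert: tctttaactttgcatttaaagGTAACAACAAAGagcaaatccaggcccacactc
Kit without the insert: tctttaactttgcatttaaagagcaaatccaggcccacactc
Of the 5118 positions at which a 97-base read can lie in the transcript with the insert, 104 (2.03%) gave a sequence that the other transcript does not hold. The deposited table does not say which accession carries the insert, and the sum over the gene does not depend on the division between its transcripts.

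Of the 9 receptors, *Flt3* and *Kit* had the highest levels in the pre-pro-B library and were below 1 FPKM in the pro-B library. *Flt3* (NM_010229, chromosome 5 of mm9, 148142317 to 148212065) measured 303 FPKM in the pre-pro-B library, with an interval of 5.91 to 746. FPKM is the number of fragments scaled to transcript length and library size. All intervals here are 95% confidence intervals from the authors' Cuffdiff model and hold no spread between cultures. In pro-B cells its FPKM was 0.916 (interval 0 to 2.90). The level in the pre-pro-B library was thus 331-fold that in the pro-B library, and the intervals did not overlap. *Flt3* ranked 85th of 20250 genes by FPKM in the pre-pro-B library and 9424th in the pro-B library.

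*Kit* (chromosome 5 of mm9, 75971012 to 76052746) reached 107 FPKM over both transcripts in the pre-pro-B library and 0.377 in the pro-B library, a 284-fold difference. Its rank was 445th in the pre-pro-B library and 10152nd in the pro-B library. NM_021099 supplied 76.8% of the gene's FPKM in the pre-pro-B library, with a value of 82.2 (interval 3.12 to 174), and had 0.377 (interval 0 to 1.09) in the pro-B library. Its intervals did not overlap. NM_001122733 measured 24.8 FPKM (interval 0.0160 to 76.7) in the pre-pro-B library, so the intervals of the *Kit* transcripts overlapped each other in that library. In pro-B cells it was given an FPKM of 0.000119 with an interval of 0 to 0, that is, a value above its own upper limit, and no fold is given for it. Such a value occurred for 681 of 16486 protein-coding transcripts above 0 in the pro-B library (4.13%).

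The low values in the pro-B library still rested on reads. The labels give about 90000000 reads per library and the files hold no counts, so reads were approximated from FPKM, transcript length and this nominal depth. FPKM is scaled to mapped reads, which the study also reported per library but which were not used here. Where fewer reads mapped than were sequenced, the numbers given are too high. On this conversion the FPKM of *Flt3* in the pro-B library was worth about 302 reads, against 99859 in the pre-pro-B library. That of *Kit* NM_021099 was worth about 175 reads, against 38217. In an RNA library from a whole culture, fewer cells with a transcript and less RNA per cell cannot be told apart.

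*Csf1r*, the receptor for M-CSF and the third kinase of the family among the members, was low in both libraries. Its transcript (NM_001037859, chromosome 18 of mm9, 61265226 to 61290793) measured 0.170 FPKM (interval 0 to 0.673) in the pre-pro-B library, worth about 59.2 reads, and was listed at 0 in the pro-B library. In pre-pro-B cells the upper limit of *Csf1r* lay below the lower limits of *Flt3* and of *Kit* NM_021099. The 3 kinases therefore did not share a level in the pre-pro-B library.

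**Figure D1:**
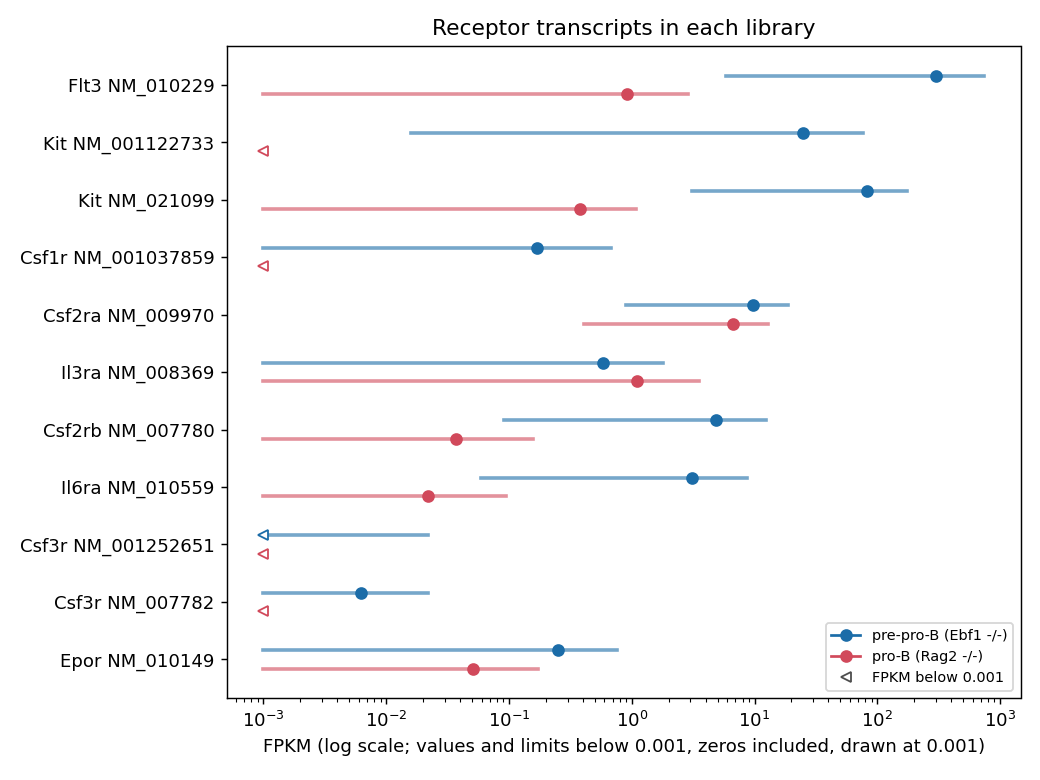
FPKM of the 11 receptor transcripts (log axis) in the pre-pro-B library (blue) and the pro-B library (red), with points for the FPKM and lines for Cuffdiff's 95% interval. The lines of *Flt3* and *Kit* do not overlap between the libraries, those of *Csf2ra* and *Il3ra* overlap along most of their length, and open triangles mark FPKM below 0.001.

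The receptor for GM-CSF was represented by its ligand-binding chain in both libraries and by its signalling chain mainly in the pre-pro-B library. *Csf2ra* (NM_009970, chromosome 19 of mm9, 61300305 to 61304321) measured 9.80 FPKM (interval 0.897 to 18.6) in the pre-pro-B library and 6.72 (interval 0.406 to 13.0) in the pro-B library, a 1.46-fold difference with wide overlap. *Csf2rb* (NM_007780, chromosome 15, 78156420 to 78181431) measured 4.87 FPKM (interval 0.0912 to 12.4) in the pre-pro-B library and 0.0374 (interval 0 to 0.158) in the pro-B library. The level of *Csf2rb* in the pre-pro-B library was 130-fold that in the pro-B library, but the intervals overlapped, and the lower value was worth about 16.0 reads. The FPKM of *Csf2ra* was 2.01 times that of *Csf2rb* in the pre-pro-B library and 180 times in the pro-B library.

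*Csf2rb* has a close copy, *Csf2rb2*, whose product is a signalling chain for Il-3 alone. *Csf2rb2* (NM_007781, chromosome 15 of mm9, 78112940 to 78136033) measured 1.00 FPKM (interval 0 to 3.18) in the pre-pro-B library and was listed at 0 in the pro-B library. The annotated transcripts of the pair were 91.3% identical over 4559 aligned bases, and 7.33% of the 97-base stretches of *Csf2rb* were found unchanged in *Csf2rb2*. How the authors' counting divided such reads between the pair is uncertain, but both genes were lower in the pro-B library. No 97-base stretch of the other 8 receptors was found in a transcript of another gene.

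*Il3ra*, the ligand-binding chain for Il-3, was the one member with a higher FPKM in the pro-B library. Its transcript (NM_008369, chromosome 14 of mm9, 15179009 to 15188004) measured 0.586 FPKM (interval 0 to 1.79) in the pre-pro-B library and 1.11 (interval 0 to 3.51) in the pro-B library. The 1.89-fold difference was below 2-fold, and the interval in the pre-pro-B library lay within that in the pro-B library. The values were worth about 73.5 and 139 reads.

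*Il6ra*, the ligand-binding chain for Il-6, was low in the pre-pro-B library and close to 0 in the pro-B library. Its transcript (NM_010559, chromosome 3 of mm9, 89673246 to 89717084) measured 3.07 FPKM (interval 0.0591 to 8.69) in the pre-pro-B library and 0.0218 (interval 0 to 0.0946) in the pro-B library. This was a 141-fold difference with slightly overlapping intervals, and the lower value was worth about 6.57 reads. The partner chain *Il6st* measured 24.6 FPKM (interval 0.761 to 48.7) in the pre-pro-B library and 0.668 (interval 0 to 1.85) in the pro-B library, also with overlap. Both chains of the Il-6 receptor were thus lower in the pro-B library, and *Il6st* stood at 8.02 times the FPKM of *Il6ra* in the pre-pro-B library and 30.6 times in the pro-B library.

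*Epor* and *Csf3r*, which serve the red cell and neutrophil lineages, were low in both libraries. *Epor* (NM_010149, chromosome 9 of mm9, 21763343 to 21768020) measured 0.253 FPKM (interval 0 to 0.756) in the pre-pro-B library, worth about 41.6 reads, and 0.0506 (interval 0 to 0.173) in the pro-B library, worth about 8.34 reads. *Csf3r* (chromosome 4, 125701903 to 125722219) was listed at 0 in the pro-B library for both of its transcripts. In pre-pro-B cells NM_007782 measured 0.00624 FPKM, worth about 2.19 reads, and NM_001252651 was listed at 0. A difference between the libraries was not detectable for *Csf3r* at this depth.

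In order of FPKM, the receptors in the pre-pro-B library were *Flt3*, *Kit*, *Csf2ra*, *Csf2rb*, *Il6ra*, *Il3ra*, *Epor*, *Csf1r* and *Csf3r*. In pro-B cells the order was *Csf2ra*, *Il3ra*, *Flt3*, *Kit*, *Epor*, *Csf2rb* and *Il6ra*, with *Csf1r* and *Csf3r* at 0. The intervals of each pair of neighbours overlapped in both orders, so the orders do not separate neighbours. Summed over the 9 genes the FPKM was 429 in the pre-pro-B library and 9.23 in the pro-B library. *Kit* and *Flt3* supplied 95.6% of this sum in the pre-pro-B library and 14.0% in the pro-B library, where *Csf2ra* supplied 72.8%. Without *Kit* and *Flt3* the sum was 18.8 in the pre-pro-B library and 7.94 in the pro-B library.

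To place the receptors among all genes, FPKM were compared as log2(FPKM + 1), which understates the change of low genes, and a gene was counted as different at 2-fold or more. Of the 9 receptors, 6 reached 1 FPKM in a library and could be counted. *Flt3* (log2 difference -7.31), *Kit* (-6.29), *Csf2rb* (-2.50) and *Il6ra* (-1.99) were lower in the pro-B library. *Csf2ra* (-0.48) and *Il3ra* (0.41) lay within 2-fold, and 0 were higher. The background among 10528 genes with 1 FPKM or more in either library was 19.1% lower and 12.2% higher, with a median log2 difference of -0.14. Each of the 4 lower receptors passed the limit of 1 only in the pre-pro-B library, so their direction was in part set by the filter. Only 5 of the 10528 genes, *Flt3* included, had a log2 difference as low as that of *Flt3*, and 18 had one as low as that of *Kit*, while 541 and 791 had one as low as those of *Csf2rb* and *Il6ra*. Intervals that did not overlap were found for 3 receptor transcripts, those of *Kit* and *Flt3* (NM_001122733 with its interval of 0 to 0 included), all lower in the pro-B library, against 2.05% lower and 0.956% higher among 18829 transcripts.

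**Figure D2:**
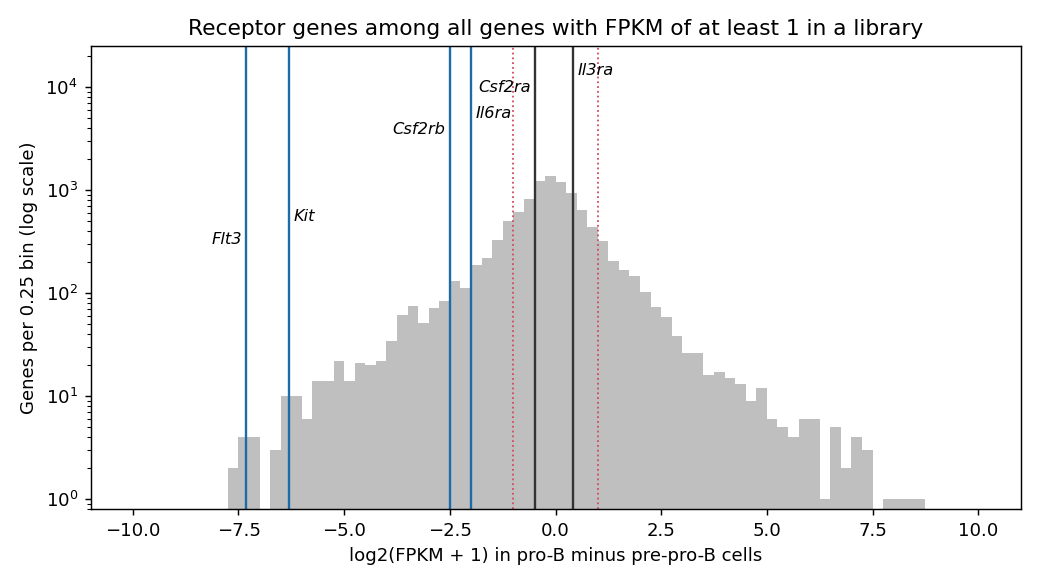
Number of genes (log axis) in bins of the log2(FPKM + 1) difference between pro-B and pre-pro-B cells, for 10528 genes with 1 FPKM or more in either library. Vertical lines mark the 6 receptors that passed this limit, blue where at least 2-fold lower, and dotted lines mark 2-fold. *Flt3* and *Kit* lie in the sparse left tail and *Csf2ra* and *Il3ra* in the central peak.

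The genes with levels most like those of *Kit* and *Flt3* were taken by Euclidean distance in log2(FPKM + 1) over the 2 libraries. For *Kit* they were *P2ry14* (FPKM 108 in the pre-pro-B library and 0.407 in the other, distance 0.035), *Gria3* (114 and 0.486, distance 0.14) and *Nrgn* (98.0 and 0.471, distance 0.16). For *Flt3* they were *Ptprc* (269 and 0.917, distance 0.17), *Lsp1* (257 and 0.895, distance 0.24) and *Jchain* (375 and 1.46, distance 0.47). With only 2 libraries such a likeness is no more than a similar pair of values. These values are sums over the accessions matched to a symbol. The single transcripts behind them and their intervals were not looked at, so none of these genes is taken as absent from pro-B cells.

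The ligands of the 9 receptors were low in both libraries. *Csf1*, which encodes M-CSF, had the highest summed FPKM among them in the pro-B library, 8.37 against 1.38 in the pre-pro-B library, and was the one ligand at least 2-fold higher. *Flt3l* was lower in the pro-B library, at 1.59 against 4.58, and *Csf2*, which encodes GM-CSF, was listed at 0 against 1.28. The intervals of each transcript of these ligands overlapped. *Kitl*, which encodes Scf, had 0.193 in the pre-pro-B library and 0.479 in the pro-B library, below the limit of 1. *Il34* and *Csf3* had 0.0743 and 0.0200 in the pre-pro-B library and were listed at 0 in the pro-B library. *Epo*, *Il3* and *Il6* were listed at 0 in both. The cultures were harvested off OP-9 stroma with a step in which remaining stromal cells could attach to a fresh flask, and stromal genes are given beside the ligands. Of 14 stromal markers, all measured, 8 reached 1 FPKM, of which 3 (*Csf1* itself, *Col1a2* and *Cxcl12*) were higher in the pro-B library and 1 (*Pdgfrb*) was lower. These were 37.5% and 12.5% of the 8, against 12.2% higher and 19.1% lower over all genes. The summed FPKM of the 14 was 22.6 in the pre-pro-B library and 22.2 in the pro-B library, but *Pdgfrb* alone supplied 15.9 of the former. Without *Pdgfrb* the sum in the pre-pro-B library was 6.72. Without *Csf1*, the most abundant in the pro-B library, the sum there was 13.8, so these sums leave out different genes. The median log2 difference of the 8 markers that reached 1 FPKM was 0.83. *Dcn* was listed at 0 in both, and the part of stromal cells in the ligand values was not tested.

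Among 18 partner and related cytokine receptor chains, 12 reached 1 FPKM, of which 7 (58.3%) were lower in the pro-B library by 2-fold or more and 0 higher, against 19.1% and 12.2% over all genes. Their median log2 difference was -1.17 against -0.14 over all genes, and 7 of the 12 reached 1 FPKM in the pro-B library. The largest differences were those of *Il10ra* (FPKM 27.9 in the pre-pro-B library and 0.0585 in the pro-B library), *Il4ra* (30.1 and 0.403), *Lifr*, a gp130 partner (20.6 and 0.194), and *Il6st*. The intervals of *Il10ra* and of *Lifr* NM_013584 did not overlap. *Il7r*, the receptor for the one cytokine given to both cultures, was the most abundant chain in each library, with 349 and 424, a difference within 2-fold. Of 19 other receptor tyrosine kinases only 4 reached 1 FPKM. *Pdgfrb* (15.9 in the pre-pro-B library and 0.377 in the pro-B library) and *Insr* (17.2 and 6.25) were lower, and *Ltk* (0.0905 and 10.5) and *Tyro3* (1.18 and 7.39) were higher.

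Of 22 *Jak*, *Stat*, *Socs* and related genes that relay or damp cytokine receptor signals, 21 reached 1 FPKM, of which 10 (47.6%, against 19.1% of all genes) were at least 2-fold lower in the pro-B library, 0 higher and 11 within 2-fold. The median log2 difference was -0.90. *Socs2*, a feedback inhibitor, had the highest FPKM of the group in both libraries (196 in the pre-pro-B library and 79.9 in the pro-B library). *Socs5* (8.87 and 0.909), *Pim2* (16.4 and 2.53), *Stat3* (47.6 and 10.3) and *Pim1* (79.9 and 24.7) had the largest differences. *Jak2*, the kinase that serves *Epor* and *Csf2rb*, had 32.3 and 34.0, and *Jak1*, which serves *Il6st*, had 45.8 and 36.7. Both kinases, named after their values were seen, lay within 2-fold, and both also serve other receptors.

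Of 30 adaptors, kinases and phosphatases that act next to these receptors, 27 reached 1 FPKM, of which 12 (44.4%) were lower in the pro-B library and 3 (11.1%) higher, again against 19.1% and 12.2% over all genes. The median log2 difference was -0.67, and 21 of the 27 reached 1 FPKM in the pro-B library. *Fes* (21.3 in the pre-pro-B library and 0.361 in the pro-B library), *Dok2* (15.8 and 0.0998), *Dok3* (14.9 and 0.112) and *Fgr* (6.90 and 0.0312), known from myeloid cells, had the largest differences. The phosphatase gene *Ptpn6*, the most abundant of the group in the pre-pro-B library, had 88.3 and 15.6. *Inpp5d*, which encodes the lipid phosphatase Ship, was the most abundant in the pro-B library, with 45.3 and 82.8, within 2-fold. Of 21 transcription factors known to act on these receptor genes, 16 reached 1 FPKM. Of these, 9 (56.2%) were lower and 4 (25%) higher, with a median of -1.17. *Ebf1*, the gene deleted in the pre-pro-B cells, was counted among the 4. All 16 reached 1 FPKM in the pre-pro-B library and 11 in the pro-B library. For those below 1 FPKM in the pro-B library the filter in part set the direction. *Hoxa9* (39.9 and 0.0655), *Meis1* (45.9 and 0.231) and *Lmo2* (26.9 and 0.930), factors of early progenitors, were lower. *Pax5*, which is known to repress *Flt3* and *Csf1r* in B lineage cells, was higher (1.13 and 239), and its intervals did not overlap. *Spi1*, which encodes PU.1 and was named after its values were seen, had 19.1 and 3.34. The most abundant factor in both libraries was *Myb* (280 and 431), within 2-fold.

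**Figure D3:**
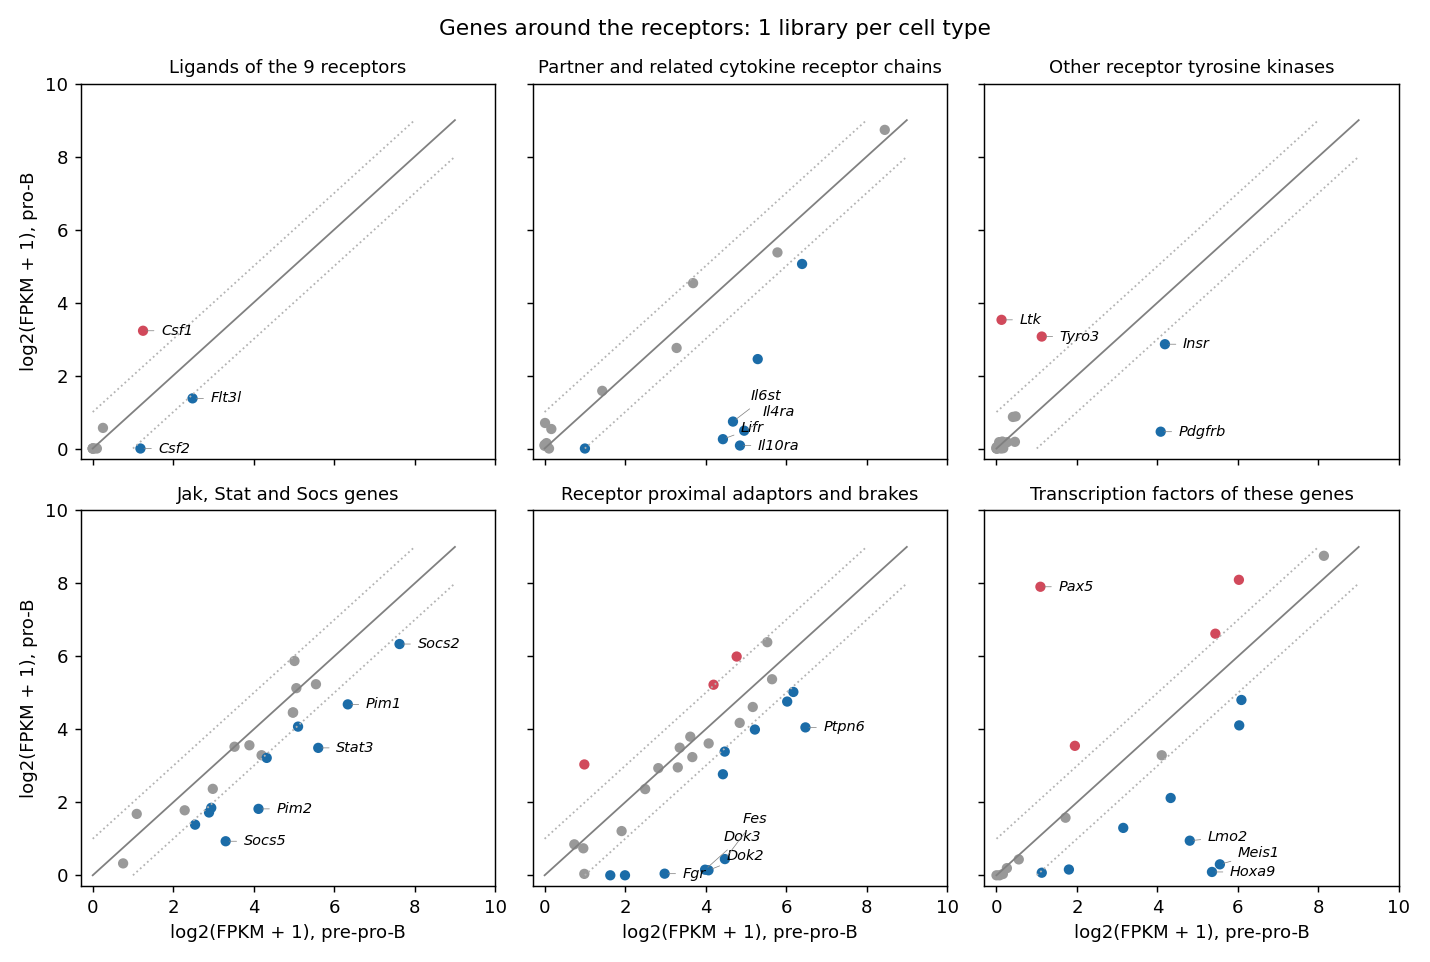
Each panel plots log2(FPKM + 1) in pro-B against pre-pro-B cells for the genes of 1 list, with a line of equality and dotted lines at 2-fold. Blue points are lower in pro-B cells by 2-fold or more, red points at least 2-fold higher, and grey points lie within 2-fold or below an FPKM of 1. Most coloured points lie below the line, with *Csf1*, *Ltk*, *Tyro3* and *Pax5* among those above it.

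The labelled cell types were checked against marker genes. The background for the marker counts here and below is 19.1% lower and 12.2% higher among genes with 1 FPKM or more in either library. Of 12 early B lineage markers 11 were higher in the pro-B library, led by *Vpreb3* (FPKM 2.02 and 877) and *Igll1* (1.17 and 798), and of 12 progenitor markers 9 reached 1 FPKM, of which 7 were lower, among them *Cd34* (534 and 1.52) and *Cd27* (105 and 0.579). *Ebf1* itself measured 64.0 FPKM (interval 2.78 to 149) in the *Ebf1* -/- library and 273 (interval 8.50 to 729) in the other, and *Rag2* had 22.9 (interval 1.75 to 44.3) in the *Rag2* -/- library and 34.5 (interval 2.88 to 66.7) in the other. The intervals of both genes overlapped, *Rag2* lay within 2-fold, neither was at 0 in its own null library, and an FPKM over a whole transcript does not show whether the deleted part was covered.

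Summed markers of monocytes, granulocytes, dendritic cells and T and NK cells were higher in the pre-pro-B library, as was the sum of the receptors. Most of those counted reached 1 FPKM only in that library, so that, as for the receptors, the filter in part set their direction. The 13 measured monocyte and macrophage markers summed to 196 in the pre-pro-B library and 21.2 in the pro-B library, led by *Ccr2* (134 and 14.6). Of these, 7 reached 1 FPKM, all 7 were lower in the pro-B library (against 19.1% of all genes), and 2 reached 1 FPKM there. *Ly6c2* (21.8 and 0.0803), *Adgre1*, which encodes F4/80 (11.7 and 0.111), and *Lyz2* (5.39 and listed at 0) were among them. The complement genes *C1qa*, *C1qb* and *C1qc* of mature macrophages were listed at 0 in both libraries, and *Cd14* had an FPKM below 1 in both.

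The 11 measured granulocyte markers summed to 39.3 and 0.275, mostly from *Mpo* (35.7 and 0.122). Only *Mpo*, *S100a8* (1.24 and listed at 0) and *Cxcr2* (1.89 and 0.134) reached 1 FPKM, all in the pre-pro-B library alone. *Elane*, *Ctsg*, *S100a9*, *Ltf*, *Camp* and *Ngp* were at 0 in both. Dendritic cell markers summed to 560 and 51.7, and without *Cox6a2* (246 and 47.8), the most abundant in both libraries, to 314 and 3.89. *Ccr9* (212 and 0.661) and *Siglech* (54.3 and 0.236), genes of plasmacytoid cells, *Bst2* (39.3 and 2.59) and *Itgax* (8.07 and 0.294) were the others that reached 1 FPKM, and all 5 were lower. *Cd209a* and *Klk1* were at 0 in both. T and NK lineage markers summed to 221 and 3.94. Of these 9 reached 1 FPKM and were lower, among them *Gzma* (56.3 and 0.123), *Cd3g* (36.8 and 0.0351), *Tcf7* (38.9 and 0.118) and *Nkg7* (31.3 and listed at 0), but only *Klrb1c* (18.3 and 3.37) reached 1 FPKM in the pro-B library. *Cd3e* (0.239 and 0.102), *Cd3d* (0.533 and listed at 0) and *Bcl11b* (0.268 and listed at 0) did not reach 1 FPKM in either library.

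Markers of mast cells and basophils, which also carry *Kit*, summed to 10.6 in the pre-pro-B library and 0.122 in the pro-B library. Nearly all of this was *Cpa3* (10.5 and 0.0296), 8 of the 10 genes, *Mcpt4*, *Fcer1a* and *Ms4a2* among them, were listed at 0 in both libraries, and *Hdc* had 0.127 and 0.0922. Megakaryocyte markers summed to 5.34 and 0.162, with *Pf4*, *Ppbp* and *Gp6* at 0 in both. *Gp9* (2.64 and listed at 0), *Gp1bb* (1.43 and listed at 0) and *Itga2b* (1.18 and 0.147) reached 1 FPKM, in the pre-pro-B library alone. *Gp9* and *Gp1bb* were at least 2-fold lower in the pro-B library and *Itga2b* lay within 2-fold. Of 12 measured erythroid markers only *Tfrc*, which dividing cells of many kinds use, reached 1 FPKM (246 and 223). The other 11 summed to 1.23 and 0.275, with *Slc4a1*, *Rhag* and both alpha globin genes at 0 in both. The part of cells of other lineages in the receptor values was not tested.

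**Figure D4:**
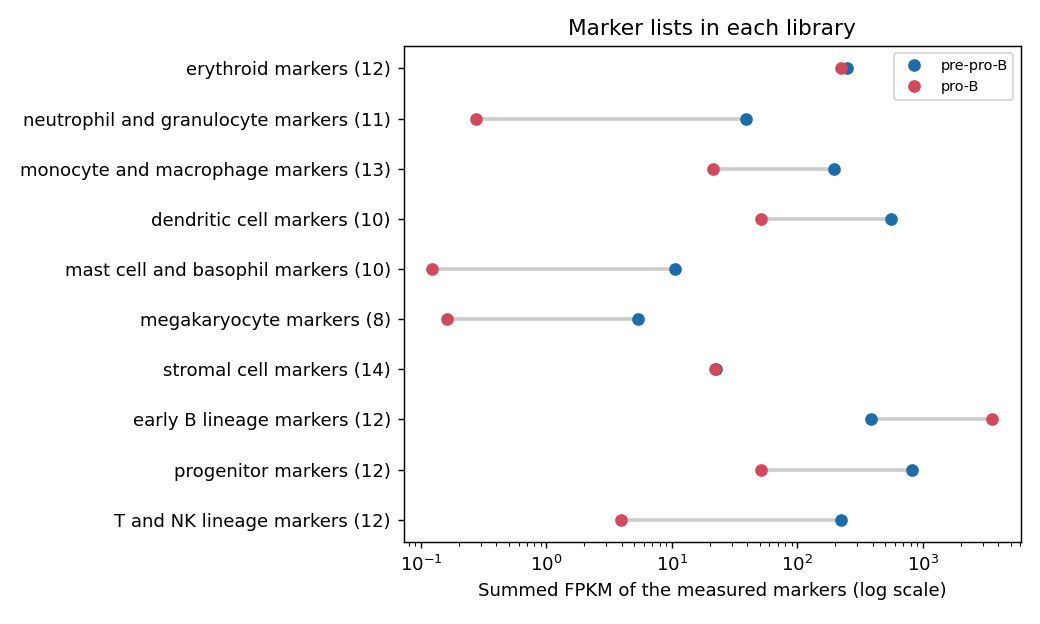
Summed FPKM (log axis) of each list of lineage markers, with the number of measured genes in brackets, in the pre-pro-B library (blue) and the pro-B library (red). Early B lineage markers are higher in pro-B cells, erythroid sums (mostly *Tfrc*) and stromal sums (with *Pdgfrb*, higher in the pre-pro-B library) nearly coincide, and the sums of the other lists are higher in pre-pro-B cells.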

How the data were processed

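RNA depleted of ribosomal RNA from 2 cultures was sequenced as strand-specific, single-end 97-base reads, about 90000000 per library per the labels. The authors trimmed the reads, aligned them to mm9 with TopHat (version 1.5 in the submitters' processing notes) (a read could keep 20 alignments), and obtained FPKM of RefSeq transcripts from Cuffdiff 2.1.1 with classic FPKM, multi-read and fragment bias correction and a blind dispersion over both libraries. The deposited FPKM come with a 95% interval, and no counts were used here, so read numbers are approximations. A second deposited table holds the authors' comparison (fold changes, p-values and q-values) and repeats the FPKM in 2 per-sample columns, and none of it was used.

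Accessions were matched to gene symbols through a RefSeq table of GRCm38, which named 26173 of 26580 protein-coding accessions. FPKM were summed over the protein-coding transcripts of 20250 genes. Differences were taken as log2(FPKM + 1), and genes were counted at 2-fold where either library reached 1 FPKM. No test was possible with 1 library per group. Transcript coordinates are those of the deposited table on mm9, promoters are from RefSeq on GRCm38, and transcript sequences from a gene annotation on mm9. The receptors, gene lists and alternatives were chosen with earlier results of these data known. Genes were named by rule: from each list the 4 genes with the largest difference and the most abundant gene of each library (of some marker lists only part of these is printed), every ligand, and for *Kit* and *Flt3* the 3 nearest genes. Some markers at 0 or below 1 FPKM were named beside their list, and other exceptions are stated. Alternatives were other pseudocounts, scalings and filters, and the most abundant transcript of each gene. Scripts were tested on simulated data and run with Python 3.11.15, numpy 2.4.6, pandas 2.3.3 and matplotlib 3.10.9.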

Additional observations from a re-analysis of the deposited data

How the results depend on the processing

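Of 114 recomputed counts and shares, 108 stayed within 1.5 times the reported value. These 108 include the counts of receptors and listed genes without a filter on low values, which that setting could not change. With an FPKM of at least 5 required in a library, 2 receptors, *Kit* and *Flt3*, were lower in pro-B cells instead of 4, and 0 ligands instead of 2. Without a pseudocount, among genes above 0 in both libraries, 1 ligand was lower. TPM scaling made 1 of the partner receptor chains higher instead of 0. Without a filter on low values the share of all genes that were lower was 9.94% and the share that were higher 6.34%. A gene below 1 FPKM in both libraries cannot reach 2-fold on log2(FPKM + 1). The called genes were therefore the same as for the reported 19.1% and 12.2%, taken over 20250 genes instead of 10528. TPM scaling shifted every log2 ratio taken without a pseudocount by -0.12 and median ratio scaling by 0.09. With the pseudocount TPM scaling moved low genes more, *Csf2rb* from -2.50 to -3.90 and *Il6ra* from -1.99 to -3.35. None of the 39 recomputed log2 differences of single receptors turned in sign. Filters and pseudocounts cannot turn a sign. The scaling shifts of -0.12 and 0.09 were smaller than each reported receptor difference, so the settings could hardly have turned one. Over the settings *Flt3* ranged from -8.37 to -7.25, *Kit* from -8.15 to -5.92, *Csf2rb* from -7.03 to -2.46, *Il6ra* from -7.14 to -1.96, *Csf2ra* from -0.64 to -0.40 and *Il3ra* from 0.41 to 0.92. The pseudocount by its construction shrank the values of *Csf2rb* and *Il6ra* most. No paired analysis was possible because each cell type has 1 library. The number of libraries and the low read numbers behind *Csf2rb*, *Il6ra*, *Epor* and *Csf3r* limit what these values show.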
